A study of Vitis vinifera with 12 samples.

Results

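Berries at veraison, the onset of ripening, were compared with green berries for their mature microRNAs (miRNAs) on 4 of the 12 arrays of a grapevine (Vitis vinifera L. cv Corvina) tissue series, 2 for each stage. Green berries, labelled preveraison, were harvested 5 weeks after flowering and veraison berries 9 weeks after flowering, both from field-grown plants. Each sample was a pool of berries of that stage whose seeds had been taken out before extraction, so both stages represent skin and flesh together, and whether fewer cells of a type or less of a miRNA per cell underlies a level cannot be told apart. The other 8 arrays held leaves, young inflorescences, in vitro grown roots and mature berries (15 weeks). No treatment was applied and every sample was of the same cultivar. The labels do not say whether the 2 pools of a stage came from different plants. The p-values therefore measure only the spread between replicate samples, which may be technical and in the main fit is taken over all 12 arrays.

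The members are the oligonucleotide probes that pair with a predicted mature miRNA over at least 18 bases, ends included: 136 distinct probe sequences of 1584 unmutated ones, which cover 138 named miRNAs of 27 families. A miRNA is given by the probe with the longest overlap, and its further probes are numbered. Where 1 sequence serves several names the first is used, so that miR395a stands for 13 names.

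Plant miRNAs are single strands cut from hairpin precursors. They guide Argonaute proteins to messenger RNAs with near-perfect sites, most of which code for transcription factors, while some families act on nutrient transport. At veraison grape berries soften, accumulate sugars and, in red cultivars, turn colour, after a first growth phase in which the green fruit sets its cell number. In Arabidopsis the main families described here have known targets: miR395 acts on ATP sulfurylases and a sulfate transporter, miR319 on TCP factors, miR169 on subunit A of nuclear factor Y (NF-YA), miR172 on Apetala 2 (AP2) like factors, miR396 on growth-regulating factors and miR166 on class III homeodomain leucine zippers.

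The sequences below are shown because near relatives of 1 family gave different values. They are the complement of each probe as deposited, restricted to the mature bases it covers, 5′ to 3′, with bases 2 to 8 (the seed) of the mature miRNA in capitals. The first are those with higher values at veraison, together with a near relative whose values overlapped or were lower.
miR395a: uGAAGUGUuugggggaacuc
miR395n: cUGAAGAGucuggaggaacuc
miR319e: uUUGGACUgaagggagcuc
miR319g: aUUGGACUgaagggagcuccc
miR159c: uUUGGAUUgaagggagcucu
miR169a: cAGCCAAGgaugacuugccgg
miR169f: cAGCCAAGgaugacuugccga
miR169l: gAGCCAAGgaugacuugccgu
miR169x: uAGCCAAGgaugacuugccua
miR169r: uGAGUCAAggaugacuugccg
miR169d: cAGCCAAGaaugauuugccgg
miR535a: uGACAACGagagagagcacgcu
miR171h: uGGUUGAGccgcgccaauauc
The next are those with lower values at veraison, again beside relatives. The miR171c probe covers only the last 18 bases of its 21-base miRNA.
miR172a: aGAAUCUUgaugaugcugcau
miR172c: gAAUCUUGaugaugcugcag
miR396a: uUCCACAGcuuucuugaac
miR396b: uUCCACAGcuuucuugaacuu
miR171c: UUGAGccgugccaauauc
miR171e: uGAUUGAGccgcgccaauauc
miR166a: uCGGACCAggcuucauuccu
miR166c: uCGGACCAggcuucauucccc
miR164a: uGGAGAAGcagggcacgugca
miR403a: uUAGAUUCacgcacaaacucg
The seed AGCCAAG was shared by 9 miR169 sequences, UUGGACU by miR319e and miR319g, UCCACAG by both miR396 sequences and CGGACCA by both miR166 sequences. The 2 miR172 sequences are offset by 1 base, which gives them different seeds over the same stretch.

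Values are log2 of the deposited intensities, which the authors had quantile-normalized over all 12 arrays, and a difference is veraison minus green berries on that scale. A probe was taken as above background on an array where its raw spot median exceeded the mean plus 2 SD of 14 control probes and was over 1.2 times that of its partner with mismatched bases. By this rule 19 of the 136 probes were above background on both green berry arrays and 25 on both veraison arrays. Of these, 15 were shared, 4 met it in green berries alone and 10 at veraison alone. A further 63 probes lay under the control level on all 4 arrays. The raw control level was 2374 and 697 on green berry arrays 1 and 2, and 914 and 1999 on veraison arrays 1 and 2. The smallest signal that counted as present thus differed from array to array. The level depended strongly on 1 of the 14 controls, for ubiquitin, which read 3611.5, 1039, 1337 and 3091 on these arrays in the same order. Without it the level was 857, 283, 400 and 618. Statements on background below use the level with this control.

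The green berry arrays differed from each other more than the veraison arrays did. On green berry array 2, 110 of the 136 probes were brighter than on array 1, with a median difference of 1.44, whereas the median difference of veraison array 2 from array 1 was -0.26. The median absolute gap between replicates was 1.48 in green berries and 0.42 at veraison, and Pearson's r over the probes, which are not independent, was 0.86 and 0.96. This offset lies in every value below, and its part in the results was measured only by leaving out each array and by other scalings.

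**Figure D1:**
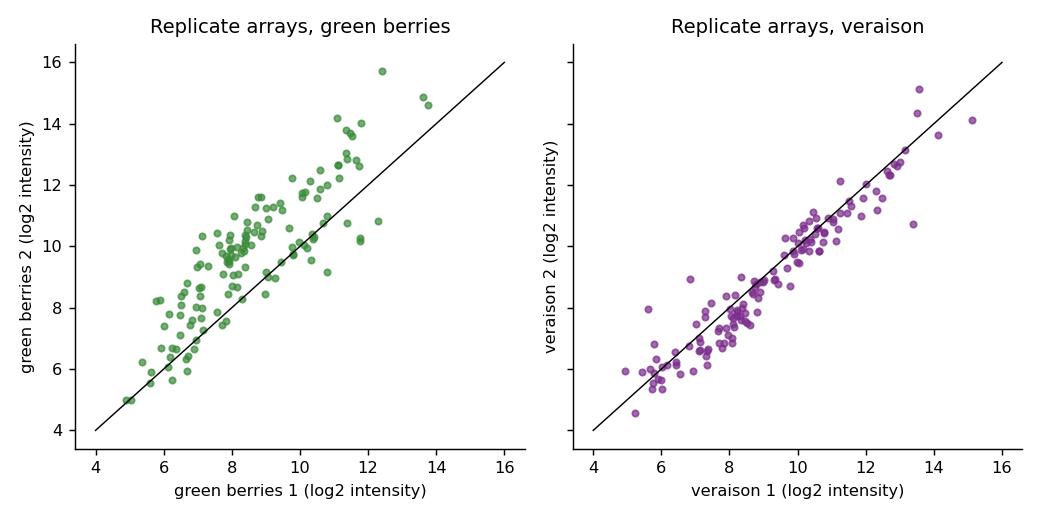
Normalized log2 intensity of the 136 miRNA probes on replicate array 2 (vertical axis) against replicate array 1 (horizontal axis), for green berries (left) and veraison (right), with the line of equality. In green berries 110 of 136 points lie above the line, and the veraison points stay close to it.

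Across all probes the 2 stages did not differ beyond the replicate error. In the fit with limma over the 12 arrays, 0 of 136 probes passed an adjusted p of 0.05 (0%), the smallest adjusted p was 0.677, and 6 probes had an unadjusted p under 0.05: miR395a and its second probe, probes 3 and 4 of miR172a, probe 2 of miR172c, and miR164a. A one-way test over the 3 berry stages, run probe by probe, gave 7 probes under 0.05 and 0 after Benjamini-Hochberg adjustment. It differs from the study's test, which discarded probes with a low mismatch ratio and took closely related miRNAs as replicates. The study's post hoc test was not run. With 2 arrays against 2, a two-sided exact permutation test cannot go below p = 0.333 for a single probe. The median standard error of a difference was 0.79. Each SE comes from replicate gaps in all 6 groups, so disagreement between leaf, root or inflorescence arrays enters errors given for berries. With only the 4 arrays of the comparison in the limma fit, 0 probes passed and the smallest adjusted p was 0.615. The differences were above 0 for 55 probes and below 0 for 81, with a median of -0.15.

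One other treatment of the same scans made calls. With a quantile normalization of the raw medians restricted to the 136 members, 14 probes passed an adjusted p of 0.05, 11 of them of miR169, all higher at veraison, and 3 of miR172, all lower. In that setting the median offset between the green berry arrays was 0.11 and the median standard error 0.52. All 14 pointed the same way in the deposited table, where the arrays of the stages did not overlap for any of them. Both are treatments of the same scans, so this is no independent evidence. Probes of a family that share most of their bases can bind the same RNA, so the 14 are not separate measurements. miR395a was not among the 14.

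The arrays of the stages did not overlap for 33 probes that were higher at veraison (24.3% of 136) and for 27 that were lower (19.9%). Counts for a family are read against these shares. From the raw medians without normalization the corresponding counts were 25 and 29 (values under 50 set to 50). The balance turned with other scalings of the raw medians, with 7 higher and 26 lower after scaling to the 75th percentile. After scaling on 13 positive control probes, here called the tRNA controls, 1 was higher and 47 lower. The study names a small nuclear RNA and grapevine tRNAs as its positive controls. On these controls, 0 of the miR395 and 0 of the miR319 probes and 1 of the miR169 probes were separated and higher, and all 6 miR172 probes were separated and lower. This scaling lowers every difference by the same amount from the values without normalization, the median of all probes going from -0.12 to -0.66. Probes already lower thus stay lower and higher ones shrink, so this contrast between families is no test of either. The tRNA controls were themselves dim. Their raw medians were 113 and 30.25 on green berry arrays 1 and 2, and 116.25 and 98.5 on veraison arrays 1 and 2. Each lay under the background level of its array, so this scaling rests on weak signals. From the raw medians as scanned, 119 of the 136 differences had the same sign as in the deposited table.

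**Figure D2:**
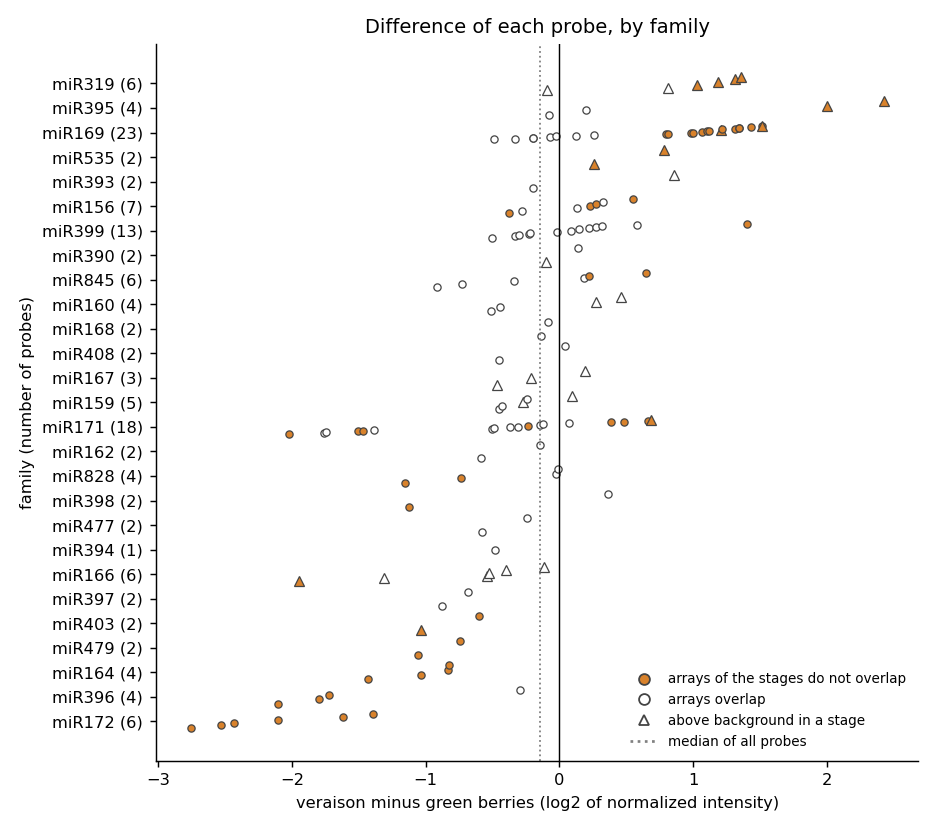
Difference of each of the 136 probes (horizontal axis, log2 of normalized intensity, veraison minus green berries) by family (vertical axis, number of probes in parentheses, ordered by the family's median). Orange marks probes whose 2 veraison arrays lie wholly above or below the 2 green berry arrays, and triangles mark probes above background on both arrays of a stage; the 6 miR172 probes lie between -2.76 and -1.40 and the largest positive difference, 2.43, is that of miR395a.

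miR395 gave the largest difference in favour of veraison. The miR395a probe read 11.34 and 13.05 in green berries and 15.12 and 14.13 at veraison. Both veraison arrays were above both green berry arrays, and the probe was above background on all 4. The mean was 12.20 ± 1.21 (SD, n = 2) in green berries and 14.62 ± 0.70 (SD, n = 2) at veraison, a difference of 2.43 (SE 0.88, 95% interval 0.50 to 4.36, limma adjusted p = 0.677) or 5.38-fold. The raw medians showed the same order, with 3178 and 11706 in green berries and 22128 and 16186 at veraison. The perfect-match signal was 7.35 and 29.3 times the mismatch signal on the green berry arrays, and 56.1 and 31.4 times on the veraison arrays. The difference was 1.57 without green berry array 1 and 3.28 without green berry array 2, and it was 1.09 when raw values were scaled on the tRNA controls. With that scaling, and with scaling to the 75th percentile, the stages overlapped.

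Probe 2 of miR395a, which covers 19 bases and was printed at 13 positions, read 11.11 and 12.64 in green berries and 14.12 and 13.63 at veraison, a difference of 2.004 (SE 0.81). It shares its sequence with the first and is no independent evidence. miR395n, a family member whose sequence, read 1 base further in, differs from miR395a by U6A, U9C and G13A (positions from the 5′ end of miR395a), stayed near the dim end: 7.71 and 7.43 in green berries, 7.28 and 7.71 at veraison. Its arrays overlapped, none was above background, and the difference was -0.08 (SE 0.55).

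Over all 12 arrays, the 2 veraison arrays were the brightest for only 3 of the 136 probes: both miR395a probes and the second probe of miR845d, whose values were near the bottom of the scale. For miR395a the brightest other array was green berry array 2. Mature berries read 12.46 and 10.61, back within the range of the green berry arrays or under it.

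**Figure D3:**
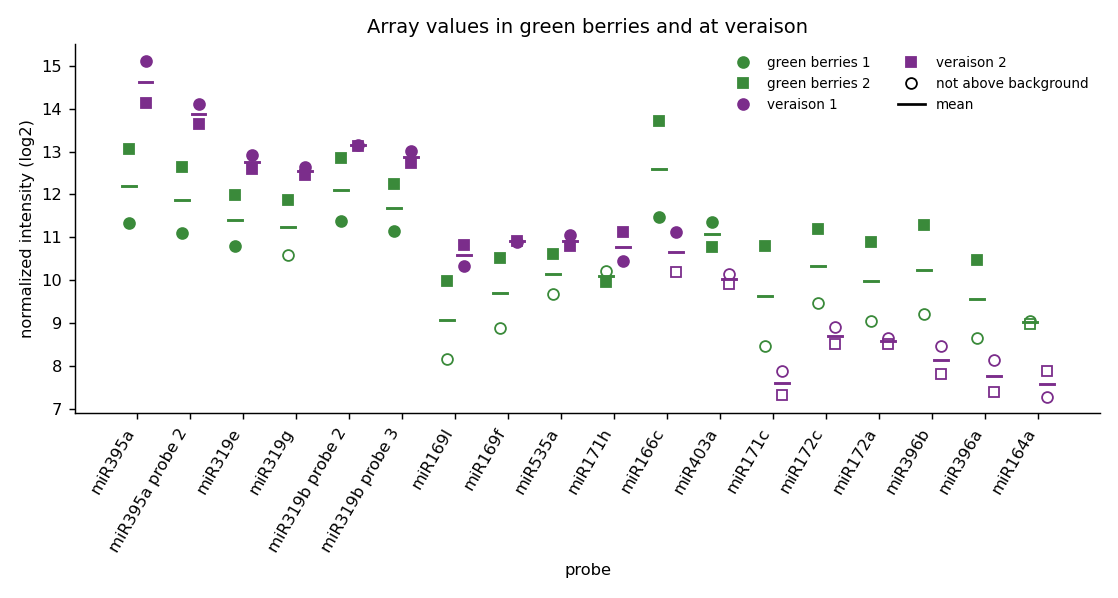
Normalized log2 intensity (vertical axis) of 18 probes (horizontal axis) on the green berry arrays (green) and the veraison arrays (purple), with circles for replicate 1, squares for replicate 2, lines for the means and open symbols for values not above background. The miR395a and miR319 probes are above background at veraison on both arrays, while the miR171c, miR172, miR396 and miR164a values at veraison are all open.

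The miR319 probes were also higher at veraison, though not in every scaling. Of 6 probes, 5 had positive differences, 4 of them without overlap (66.7% of the family, beside 24.3% of all probes). The family median was 1.11, beside -0.15 for all probes. That median was 0.47 without green berry array 1 and 1.75 without array 2. miR319e read 10.80 and 11.998 in green berries and 12.92 and 12.61 at veraison. The 2 stages did not overlap, the probe was above background on all 4 arrays, and the difference was 1.36 (SE 0.75, adjusted p = 0.677). miR319g read 10.59 and 11.88 and then 12.64 and 12.46, a difference of 1.31 (SE 0.68). The miR319b probe gave 10.15 and 11.77 in green berries and 12.34 and 11.20 at veraison, and here the stages overlapped (difference 0.81, SE 0.78). From miR319g to miR319e the only change over their common bases is A1U. Probes 2 and 3 of miR319b differed by 1.03 (SE 0.73) and 1.19 (SE 0.75) without overlap, though they overlapped in the raw medians, whereas the second miR319g probe had a difference of -0.09 (SE 1.03), its veraison arrays reading 13.40 and 10.75. Scaled on the tRNA controls, 3 of the 6 differences were above 0 and 3 below, with a median of 0.01.

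miR159 is the nearest relative of miR319 in sequence and acts on GAMYB factors. Going from miR319g to miR159c the changes are A1U, C7U and C20U. miR159c was the brightest of all members and read 13.61 and 14.87 in green berries and 13.55 and 15.12 at veraison. The arrays of the stages overlapped and the difference was 0.09 (SE 0.82, 95% interval -1.71 to 1.90). None of the 5 miR159 probes was free of overlap, beside 24.3% higher and 19.9% lower of all probes.

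miR169, the largest family on the array, was dim at both stages, and most of its probes had higher values at veraison. Of 23 probes, 17 were higher at veraison and 6 lower, 15 of the former and 1 of the latter without overlap (65.2% and 4.35% of the family, beside 24.3% and 19.9% of all probes), with a family median of 0.996. miR169l read 8.15 and 9.98 in green berries and 10.34 and 10.82 at veraison, a difference of 1.52 (SE 0.83, adjusted p = 0.677). miR169f read 8.89 and 10.51, then 10.90 and 10.92, a difference of 1.21 (SE 0.82). Both stages were separated for these 2 probes, the only ones of the family above background on both veraison arrays, and each was above background on 1 of the 2 green berry arrays. miR169a (difference 1.34, SE 0.80), miR169r (1.34, SE 0.75), miR169o (1.43, SE 0.80) and miR169x (0.98, SE 0.81) were separated in the same direction, but none of these 4 was above background on both arrays of a stage. With the ubiquitin control left out of the level, all 4 would count as above background on both veraison arrays, and none on both green berry arrays. Green berry array 2 lay 1.62 to 1.97 above array 1 for these 6 miRNAs, so that leaving out array 1 lowered the miR169l difference to 0.60 and leaving out array 2 raised it to 2.43.

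Within the family the probes were also grouped by sequence. The 11 probes that hold bases 2 to 19 of miR169a without a change were all higher at veraison and all without overlap (beside 24.3% of all probes). Their differences lay between 0.98 and 1.52. The 12 probes with a change in that stretch were split, 6 higher (4 without overlap) and 6 lower (1 without overlap), with a median of 0.05, and the 2 groups were not tested against each other. The 4 separated and higher ones were miR169r, which starts 1 base further upstream and carries C1G and C4U (1.34), its probe 2 (0.81), miR169b (0.80) and its probe 2 (1.11). Among the others, miR169d (G9A and C14U) read 6.61 and 8.51 in green berries and 7.12 and 7.02 at veraison (difference -0.49, SE 0.66), and miR169v (C1A and C14A) and miR169i (C1G, U16G and G21U) differed by -0.03 and -0.34. Probes that share 18 bases can bind the same RNA, so the 11 are closer to 1 measurement than to 11, and the grouping was made after the values were seen.

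miR535 and miR156 act on SBP box factors (squamosa promoter binding proteins), miR156 as the regulator of phase change in Arabidopsis. miR535a read 9.68 and 10.60 in green berries and 11.05 and 10.80 at veraison, without overlap, a difference of 0.78 (SE 0.67, adjusted p = 0.745). Its second probe, above background on all 4 arrays, differed by 0.26 (SE 0.53). miR156f lay between 10.69 and 11.03 on all 4 arrays, with a difference of 0.23 (SE 0.56), while miR156a (12.29 and 10.84, then 11.25 and 12.15) and miR156e (11.76 and 10.29, then 10.55 and 10.94) overlapped. Of the 9 probes of both families, 7 were higher at veraison (5 without overlap) and 2 lower (1 without overlap), with a median of 0.26. The separated ones are 55.6% and 11.1% of the 9, beside 24.3% and 19.9% of all probes. None of the 7 miR156 probes was above background on both arrays of a stage, so their directions come from signals that failed that rule. For miR156b, miR156e and miR156h the mismatched partner was brighter than the match on all 4 arrays. The match was 0.89 to 1.52 times its partner for miR156a, and 0.53 times for miR535a on green berry array 1. On miR156a and miR156e, unlike most members, green berry array 1 was the brighter one.

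miR172 was lower at veraison on every probe. The 2 stages did not overlap for any of the 6 (beside 19.9% of all probes), with a median of -2.27. miR172c read 9.46 and 11.19 in green berries and 8.90 and 8.51 at veraison, a difference of -1.62 (SE 0.96, adjusted p = 0.677). miR172a, identical over 19 bases, read 9.06 and 10.88, then 8.65 and 8.51 (-1.40, SE 0.91). Probe 4 of miR172a, which covers the 19 bases common to both miRNAs, read 8.86 and 10.34, then 7.10 and 6.58 (-2.76, SE 0.88). All 6 differences stayed below 0 in each of the 6 other scalings and without each array in turn, but the family median was -1.10 without green berry array 2 and -3.30 without array 1. The depth of the signal limits these values: on the veraison arrays none of the 6 probes was above background, so the sizes of these differences are not measured there and have no rank; in green berries 5 were above it on array 2 alone, and no fold is given.

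The same held for miR396, miR171c and miR164. miR396b read 9.21 and 11.29 in green berries and 8.47 and 7.82 at veraison (-2.10, SE 1.43), and miR396a, which also stands for miR396c and lacks the last 2 bases of miR396b, read 8.66 and 10.47, then 8.14 and 7.39 (-1.80, SE 1.30). The leaf arrays, which enter the SE of miR396b, read 11.48 and 5.87. Without green berry array 2 the miR396b difference was -1.07, and without array 1 it was -3.14. Of the 4 miR396 probes 3 were lower without overlap (75%, beside 19.9% of all probes). miR164a, known in Arabidopsis for limiting NAC factors at organ boundaries, read 9.05 and 8.99 in green berries and 7.29 and 7.89 at veraison (-1.43, SE 0.56, unadjusted p = 0.026). miR164b differed by -0.83 (SE 0.64), and all 4 miR164 probes were lower without overlap (beside 19.9% of all probes). None was above background on any of the 4 arrays.

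miR171, which acts on GRAS factors of the scarecrow-like group, gave values in both directions. miR171c read 8.46 and 10.80 in green berries and 7.89 and 7.33 at veraison, a difference of -2.02 (SE 1.02, adjusted p = 0.677), and was above background on green berry array 2 only. The difference was -3.20 without green berry array 1 and -0.85 without array 2. Probes 3 and 4 of miR171c, which cover its first 18 bases, differed by -0.50 (SE 0.89) and 0.07 (SE 0.84) with overlap. miR171h went the other way, with 10.22 and 9.96 in green berries and 10.44 and 11.11 at veraison (0.68, SE 0.59, adjusted p = 0.745), above background on both veraison arrays. miR171e, from which miR171h differs by A3G, read 9.77 and 9.99, then 10.05 and 10.48 (0.38, SE 0.55). Both were separated by small margins in the deposited table and overlapped in the raw medians. miR171f, with a difference of -0.12 (SE 0.69), overlapped. In the family as a whole 5 differences were above 0 and 13 below, with 4 probes free of overlap in each direction (22.2%, beside 24.3% and 19.9% of all probes).

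miR166 was bright in both stages, and here a single array decided the direction. miR166c read 11.48 and 13.71 in green berries and 11.11 and 10.18 at veraison, a difference of -1.94 (SE 1.08, adjusted p = 0.677) without overlap, at 3364 and 25578 in the raw medians against 1830 and 1431. miR166a, from which miR166c differs by U20C over the common bases, read 11.53 and 13.61, then 12.29 and 11.80 (-0.52, SE 1.03), and overlapped. All 6 miR166 probes had negative differences, but without green berry array 2 the median over the family was 0.60 and 5 of the 6 were positive, miR166c being the exception at -0.83. The longest-overlap probe of miR166c and its second probe cover the same 21 bases of the miRNA with different flanking bases, and the second differed by -1.31 (SE 1.27).

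miR403a, which in Arabidopsis acts on Argonaute 2, was above background on both green berry arrays and on neither veraison array. It read 11.37 and 10.78 in green berries and 10.16 and 9.92 at veraison, without overlap, a difference of -1.03 (SE 0.999, adjusted p = 0.774). The green berry mean was 1.44-fold the lowest signal above background on the veraison arrays, averaged over the 2 arrays. That ratio carries no error, and the 95% interval of the difference was -3.22 to 1.16. The leaf arrays, which enter this interval, read 11.31 and 7.95, whereas the SD (n = 2) was 0.42 in green berries and 0.17 at veraison. Its second probe differed by -0.60 (SE 0.81). The other miRNAs of the silencing pathway overlapped: miR168 (10.35 and 10.41, then 10.63 and 9.85) and miR162 (8.75 and 10.70, then 9.34 and 8.93), which act on Argonaute 1 and Dicer-like 1 in Arabidopsis, differed by -0.14 (SE 0.67) and -0.59 (SE 0.87). All 6 probes of this list had negative differences, 2 of them, both of miR403, without overlap (33.3%, beside 19.9% of all probes).

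In the deposited table the stages overlapped for all 11 probes of the auxin response families, beside 24.3% separated and higher and 19.9% lower of all probes. Above background in a stage were 7, and the median difference was -0.10. In other scalings 1 miR167 probe was separated and lower, with both quantile normalizations of the raw medians and on the tRNA controls. With the quantile normalization over the miRNA probes, 1 miR393 probe was separated and higher. miR167a and miR167b, whose targets are auxin response factors, differed by -0.47 (SE 0.98) and -0.21 (SE 0.81), and miR160c, which acts on another group of these factors, by 0.28 (SE 0.94). For miR160c green berry array 1 read 10.30 and array 2 12.13, with both veraison arrays at 11.50 and 11.47 between them.

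The remaining lists were dim. None of the 13 miR399 probes, of the phosphate response, or of the 6 probes of the copper protein families was above background on both arrays of a stage. Without overlap, 1 miR399 probe was higher at veraison and 1 copper probe lower, beside 24.3% and 19.9% of all probes. miR399b, miR399g and miR399i differed by -0.22, 0.58 and 0.22 (SE 0.82, 0.60 and 0.79), and miR397a, miR398a and miR408 by -0.69, 0.36 and 0.05 (SE 0.65, 0.73 and 0.93). Among the 15 probes of the other families, miR394a, miR477a and miR845c differed by -0.48, -0.24 and -0.72 (SE 0.84, 0.79 and 0.75) with overlap, and 2 probes were higher and 4 lower without it.

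Among the 29 probes above background in at least 1 stage, 11 were higher at veraison without overlap and 2 lower (miR166c and miR403a). These are 37.9% and 6.9% of the subset, beside 24.3% and 19.9% of all probes. This subset passed through the stage in which a probe was bright, so the counts are a description only. Any other member that was separated and lower at veraison falls, by the definition of the subset, below background on at least 1 green berry array.

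**Figure D4:**
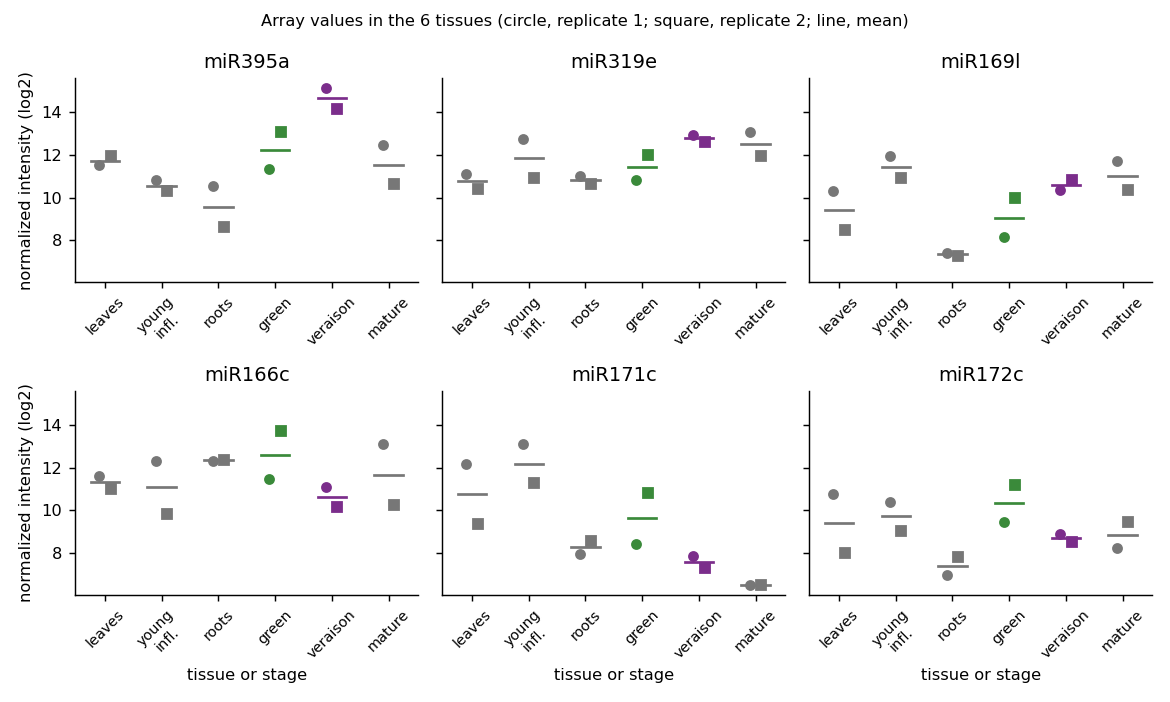
Normalized log2 intensity (vertical axis) of 6 miRNAs on all 12 arrays, by tissue or stage (horizontal axis), with green berries in green, veraison in purple, circles for replicate 1, squares for replicate 2 and lines for the means of the 2 arrays. The veraison arrays are the 2 brightest for miR395a, at 15.12 and 14.13, while for miR319e and miR169l mature berries read within or above the veraison values on at least 1 array.

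Mature berries gave these values for other miRNAs named above. miR319e read 13.05 and 11.94 in mature berries, which overlapped the green berry arrays (10.80 and 11.998). miR169l read 11.69 and 10.34, above both green berry arrays. miR171c read 6.54 and 6.50, under both veraison values, and miR164a 7.07 and 6.90. miR172c read 8.27 and 9.465, which overlapped the veraison arrays and, barely, the green berry arrays (9.461 and 11.19). miR166c read 13.08 and 10.25, which overlapped the veraison arrays and also the green berry arrays (11.48 and 13.71). These values are given as measured and were not tested against veraison.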

How the data were processed

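Low molecular weight RNA was labelled with Cy5 and hybridized to CombiMatrix oligonucleotide arrays in which each probe was printed 3 times and paired with a mismatched partner. Slides were stripped and reused, and the sources used here do not say which arrays shared a slide. The authors deposited, per sample, raw intensity medians over the 3 spots and, in the series table, linear intensity values quantile-normalized over 3973 rows of 12 arrays. Whether background was subtracted is not stated in these sources.

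Probes were matched to the predicted mature sequences (202 rows, 136 distinct sequences, identical ones averaged). Log2 values were fitted with limma 3.58.1 in R 4.3.3 on all 12 arrays in 6 groups, with Benjamini-Hochberg adjustment over the 136 probes. The fit was tried on simulated data with changes larger than any difference found here. That trial does not show its power at the sizes in these data. The array design used here has 2 arrays a stage, which limits the precision. The members and lists were chosen with earlier results of these data known. Named probes are the 10 with the largest difference among those above background and without overlap, the 3 brightest miRNAs of each of 14 target lists, and 13 miRNAs on which the study reported. Arrays were not paired by replicate number in the main fit. The correlation of deviations between same-numbered arrays was -0.21, and this value does not show whether a pairing exists. Control levels were high on green berry array 1 and veraison array 2 (2374 and 1999) and low on the other array of each stage (697 and 914). A block crossed in this way is given below, and the cause of these levels was not tested. Alternatives were 6 scalings or floors, other sets of arrays and probes, a trend, array weights, a replicate block and leaving out each array. The columns of mismatch probes were used only for the presence rule. No reference sequence or coordinate was used.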

Additional observations from a re-analysis of the deposited data

Results flagged for a closer look

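Of 1448 distinct unmutated probes that match none of the predicted mature miRNAs over 18 bases, 23 were above background on both green berry arrays and 28 on both veraison arrays, a signal in probes that the comparison did not use. Of the 23, 9 overlapped a mature sequence by 11 to 15 bases without a change, 8 of them shifted towards its 5′ end, and of the 28 there were 14 such probes, 13 shifted that way. The other 14 in each stage had no such overlap. Single arrays were not tested as outliers in these groups of 2.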

How the results depend on the processing

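The count of 0 called probes held in 17 of the 18 limma alternatives planned. The exception was the quantile normalization over the 136 miRNA probes (14 called). The one-way test run probe by probe, without adjustment, gave 7. The median difference over all probes, -0.15, ranged from -0.61 to 0.39 when each array was left out, and from -0.66 with scaling on the tRNA controls to 0.05 with quantile normalization over the miRNA probes, so that directions near 0 are relative to that shift. Of 136 differences, 55 were above 0 in the deposited table, 70 after quantile normalization over the miRNA probes and 28 with scaling on the tRNA controls. With a replicate block the count of called probes was 0, and with crossed numbers in the block on the 4 arrays, added after seeing the data, it was 4 (0 with the numbers uncrossed).

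Probes above background in green berries numbered 37 without the ubiquitin control, 9 at the mean plus 3 SD and 67 when 1 of the 2 arrays sufficed, against 19, and at veraison 56 without that control and 40 with 1 array sufficing, against 25. Separated probes that were higher at veraison numbered 7 with scaling to the 75th percentile and 1 on the tRNA controls, against 33, and separated lower ones 47 on the tRNA controls, against 27; these counts under other scalings were added after seeing the data.

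Of 793 differences of the 46 named probes under alternatives, 739 kept direction and call, 5 became called (all miR169, in the setting above) and 49 changed sign; the cause was not tested. Without normalization these were miR156a at -0.023, miR159c at -0.52, miR160c at -0.35 and miR395n at 0.34. With quantile normalization over all unmutated probes they were miR156a at -0.19 and miR159c at -0.0074. With quantile normalization over the miRNA probes they were miR156a at -0.19, miR159c at -0.16, miR171f at 0.25, miR395n at 0.22 and miR399b at 0.43. With the 75th percentile they were miR156a at -0.22, miR156f at -0.11, miR159c at -0.72, miR160c at -0.54, miR171e at -0.012, miR395n at 0.14 and miR408 at -0.053. On the tRNA controls they were the second miR319b probe at -0.0016, miR319b at -0.10, miR156a at -0.57, miR156f at -0.46, miR159c at -1.07, miR160c at -0.89, miR171h at -0.091, miR171e at -0.36, miR408 at -0.40 and miR399i at -0.25. Leaving out each array in turn gave -0.594 to 0.863 for miR156a, -1.02 to 0.454 for miR156e, -0.691 to 0.877 for miR159c, -0.803 to 0.376 for miR167b, -1.23 to 0.298 for miR167a, -0.638 to 1.19 for miR160c, -0.529 to 0.252 for miR168, -1.57 to 0.39 for miR162, -1.56 to 0.514 for miR166a, -0.589 to 0.347 for miR171f, -1.45 to 0.963 for miR477a, -1.41 to 0.451 for miR394a, -0.29 to 0.136 for miR395n, -1.56 to 1.65 for miR408, -0.093 to 0.816 for miR398a, -0.81 to 1.25 for miR399i and -1.39 to 0.952 for miR399b.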
